A study of Malus domestica with 4 samples.

Results

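The 3 apple (Malus domestica) genes followed here code for WRKY transcription factors (TFs): MDP0000708692, which the study names WRKY 33, and MDP0000127976 and MDP0000652760, both named WRKY 23. They are 3 of 63514 gene models in the count tables and 3 of the 63 TFs that the study listed as differing between fruit at 0.4 kPa and fruit at 0.8 kPa oxygen. The genes were therefore selected on their counts in these 2 atmospheres, and the difference between them is given here as a description without a test. A further WRKY 23 locus of the same list, MDP0000134105, is paired by the study with the same RefSeq transcript as MDP0000652760 and is shown beside the members.

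RNA was taken from slices of the cortex of Granny Smith fruit, a green apple cultivar, that had been picked at commercial ripening and held in the cold. The T0 group was sampled in normoxia after acclimation to the low temperature, and the 0.4ox and 0.8ox groups were sampled after 24 days at 0.4 and 0.8 kPa oxygen. The shifted group was sampled after the chamber at 0.4 kPa had been brought to 0.8 kPa, on a day that the labels leave out. The study describes 3 fruit per sampling, and each oxygen level had 1 chamber, so oxygen level and chamber cannot be told apart. Libraries of normoxic fruit of the same storage time were not analysed here, so the effects of oxygen and of storage cannot be told apart in the comparisons with T0.

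WRKY proteins are plant TFs that carry 1 or more WRKY domains, a DNA-binding fold with a zinc finger, and bind a short promoter element called the W-box. Many of them are induced by pathogens, wounding and abiotic stress. In Arabidopsis, WRKY33 acts in defence against necrotrophic fungi and in the synthesis of the phytoalexin camalexin, downstream of a mitogen-activated protein (MAP) kinase cascade and together with VQ motif proteins, which bind WRKY factors. WRKY23 of Arabidopsis responds to auxin and is known from root development and flavonol synthesis.

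The tables hold 1 estimated count per gene and condition, made by the authors from 3 libraries, with a variance from which the errors below were derived. The totals were 9553180 for T0, 5445598 for 0.4ox and 6471124 for 0.8ox, and levels are given as counts per 1000000 of these totals (CPM). A separate table holds 0.8ox again and the shifted group, with totals of 5363827 and 4865029, and its low counts are sums of whole reads in 99.8% of cases, whereas most low counts of the others also contain fractions of reads, as a division of reads between loci would give. As a check of the labels, pyruvate decarboxylase (MDP0000800945), an enzyme of ethanol fermentation, stood at 89.5 CPM in T0, 8762 in 0.4ox and 5697 in 0.8ox. With errors of 2540 and 981 CPM, 0.4ox and 0.8ox overlapped. ACC oxidase (MDP0000195885), which makes the ripening hormone ethylene, stood at 107.1, 2610 and 6460. Of the other planned markers, alcohol dehydrogenase (MDP0000594290) stood at 114.1, 250.2 and 184.0. Its 0.8ox count was 1191 with fractions of reads but 2.64 in the separate table of whole reads. Its levels are therefore uncertain for a single locus. ACC synthase (MDP0000413933) was flat at 1.11, 1.09 and 1.28. The shifted group was not checked in this way.

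All 3 WRKY genes were highest in 0.4ox. WRKY 33 (MDP0000708692) had 3.22 ± 0.59 CPM in T0, 9.64 ± 1.59 in 0.4ox and 1.75 ± 0.52 in 0.8ox (SD from the deposited variance of 3 libraries). These values rest on 30.8, 52.5 and 11.3 estimated counts, so the 0.8ox level has an SD of 29.8% of its value. The 0.4ox level was above both others by more than these errors, and T0 and 0.8ox lay closer together.

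The WRKY 23 gene MDP0000127976 had 5.52 ± 0.81 CPM in T0, 17.4 ± 2.3 in 0.4ox and 4.62 ± 0.84 in 0.8ox, from 52.7, 95.04 and 29.9 estimated counts. T0 and 0.8ox overlapped within their errors. The other WRKY 23 gene, MDP0000652760, had 1.53 ± 0.40, 6.48 ± 1.11 and 1.26 ± 0.44 CPM, from 14.7, 35.3 and 8.13 estimated counts, with the same order of groups. The further locus MDP0000134105 had 4.999 ± 0.757, 16.7 ± 2.2 and 4.73 ± 0.86 CPM. Levels were not divided by transcript length, so the genes are compared only within themselves. In cortex as a whole, fewer cells that express a gene and less of its RNA per cell cannot be told apart.

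**Figure D1:**
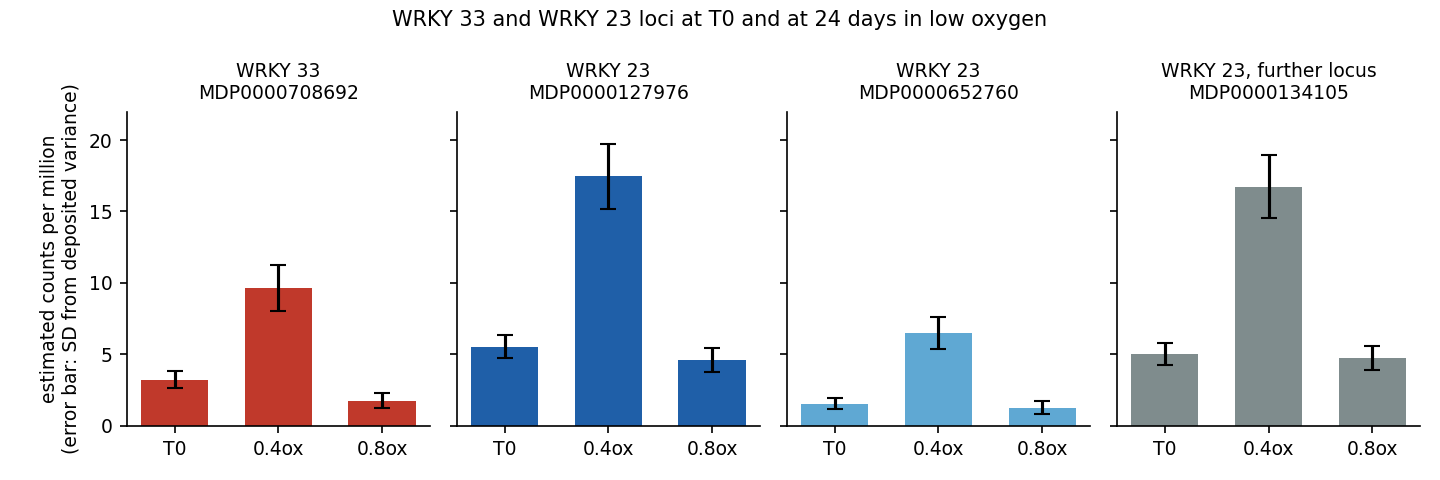
Level in CPM (bars) of WRKY 33, both WRKY 23 members and the further WRKY 23 locus in T0, 0.4ox and 0.8ox, with the SD from the deposited variance as error bars. In each panel 0.4ox is highest, at 9.64, 17.4, 6.48 and 16.7. T0 and 0.8ox overlap within their errors for the WRKY 23 loci, and WRKY 33 is lower in 0.8ox, at 1.75 against 3.22 in T0.

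The comparison of 0.4ox with T0 covers the lower oxygen level and 24 days of storage together, and their effects cannot be told apart. All 3 members were higher in 0.4ox and passed the test. WRKY 33 rose 2.99-fold, with a log2 ratio of 1.58 (SE 0.36, adjusted p = 7.33e-05). MDP0000127976 rose 3.16-fold, with a log2 ratio of 1.66 (SE 0.28, adjusted p = 7.05e-08). MDP0000652760 rose 4.22-fold, with a log2 ratio of 2.08 (SE 0.45, adjusted p = 3.54e-05). The further locus had a log2 ratio of 1.74 (SE 0.29, adjusted p = 3.01e-08). Of the 29939 genes tested 7.69% were called higher and 9.18% lower in 0.4ox, and the median log2 ratio over them was -0.08. The members' 0.4ox counts had entered the selection, so these calls are not independent of it.

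The scaling between groups mattered for this step. The deposited counts of T0, 0.4ox and 0.8ox had been scaled within each condition only. The count of 1 read, as a geometric mean over the libraries and times 3, was 1.000 in T0 and 0.9993 in 0.4ox. Ratios without scaling therefore also carry the difference in sequencing depth between these groups. Without any scaling the log2 ratios of all genes fell by 0.81 and those of WRKY 33, MDP0000127976 and MDP0000652760 became 0.77, 0.85 and 1.27, past no threshold of 0.001 (adjusted p = 0.0492, 0.00591 and 0.0100). With the study's RT-qPCR reference gene (MDP0000375455) set equal they were 0.36, 0.44 and 0.86 (adjusted p = 0.337, 0.139 and 0.0697), for a shift of all genes of -1.22. That reference gene itself had 2.33 times its T0 level in 0.4ox and 2.28 times in 0.8ox when totals were equal.

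At 0.8 kPa none of the members passed the test against T0. The log2 ratio of 0.8ox to T0 was -0.88 (SE 0.50, 95% interval -1.87 to 0.11, adjusted p = 0.174) for WRKY 33. It was -0.26 (SE 0.34, interval -0.92 to 0.40, adjusted p = 0.604) for MDP0000127976 and -0.29 (SE 0.63, interval -1.52 to 0.95, adjusted p = 0.771) for MDP0000652760. The intervals leave room for a lower level in 0.8ox, in WRKY 33 most of all. Of 29909 genes tested, 6.69% were called higher and 9.94% lower in 0.8ox. With the reference gene set equal, WRKY 33 and MDP0000127976 were called lower, at -2.07 (adjusted p = 8.03e-05) and -1.45 (adjusted p = 3.92e-05), for a shift of all genes of -1.19.

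Between the atmospheres, the contrast on which the genes were selected, WRKY 33 was 5.52-fold lower in 0.8ox than in 0.4ox, MDP0000652760 was 5.16-fold lower and MDP0000127976 was 3.78-fold lower. The log2 ratios were -2.47 (SE 0.49), -2.37 (SE 0.56) and -1.92 (SE 0.33). The further locus stood at -1.82 (SE 0.32). In this contrast 2.42% of the 26934 genes tested were called lower in 0.8ox, and 160, 182 and 332 genes had a log2 ratio at or below that of WRKY 33, MDP0000652760 and MDP0000127976.

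The study's list gave the setting for this pattern. Of its 63 TFs, 45 were higher in 0.4ox than in 0.8ox, and all of these had been chosen for it. Among the 45, 16 were called higher than T0 at both oxygen levels and 15, the WRKY loci among them, were called higher in 0.4ox alone. A further 10 were called lower than T0 in 0.8ox alone, and 4 passed neither test. Over all 634 genes called lower in 0.8ox than in 0.4ox and tested in the 3 comparisons, the corresponding shares were 26.3%, 37.4%, 22.1% and 8.99%. A call at 1 oxygen level and not at the other is a description of the pattern, since these comparisons share the T0 libraries.

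**Figure D2:**
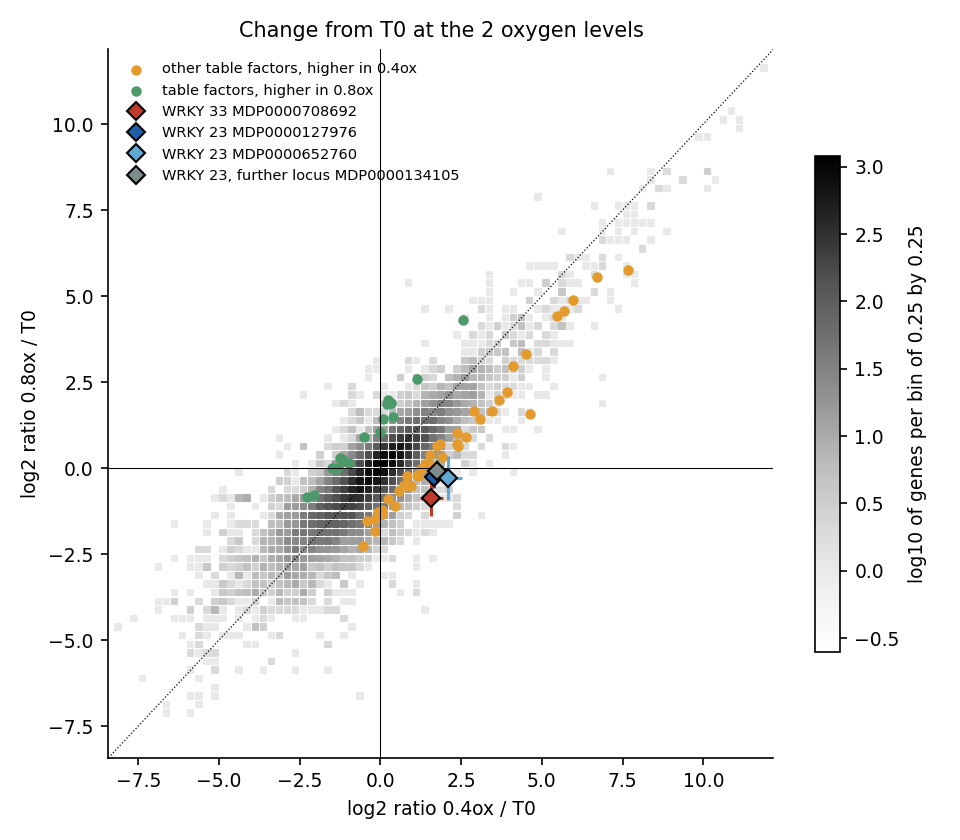
Log2 ratio of 0.8ox to T0 against log2 ratio of 0.4ox to T0, with all tested genes as grey squares shaded by number, the listed TFs as coloured points and the 4 WRKY loci as diamonds with their SE. The WRKY loci lie at 1.58 to 2.08 on the horizontal axis and at -0.88 to -0.08 on the vertical axis, below the dotted line of equal change.

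The group VII ethylene response factors (ERFs), which in Arabidopsis are stabilised when oxygen is low and switch on hypoxia genes, included genes with another pattern. MDP0000288465 had a log2 ratio of 4.50 (SE 0.24, adjusted p = 5.02e-75) in 0.4ox and 3.32 (SE 0.22, adjusted p = 1.11e-49) in 0.8ox against T0. MDP0000848905 had 3.83 (SE 0.23, adjusted p = 1.17e-58) and 2.95 (SE 0.21, adjusted p = 4.09e-42), but it was listed at 0 for 0.8ox in the whole-read table, so its ratios are as uncertain for a single locus as those of MDP0000652760. Of the 6 group VII genes, 3 were called higher in 0.4ox and 4 in 0.8ox, and 1 was called lower in each. The lower gene was MDP0000308922, at -1.13 and -1.07. Over all genes tested, 7.69% were called higher and 9.18% lower in 0.4ox, and 6.69% and 9.94% in 0.8ox.

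Whether the counts belong to these loci alone was examined in 0.8ox, which is held both with and without fractions of reads. In the whole-read table WRKY 33 kept 14, 6 and 7 reads in the 3 libraries of 0.8ox, 27 in all, ordered from the deepest to the shallowest library. On the scale of the first tables these reads make up 76.7% of its 0.8ox count. MDP0000127976 kept 5, 1 and 1 reads, which make up 6.59% of its 0.8ox count. The further locus kept 1, 3 and 3 reads, or 8.85%. MDP0000652760 kept 0 reads in every library of both groups, and 3 reads in the shallowest library alone would give 0.344 CPM in 0.8ox and 0.249 in the shifted group.

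The 0.8ox counts of both WRKY 23 members in the first tables were thus mostly not held as whole reads of their own, although the methods state that multiply mapped reads were removed. The same share could not be measured in T0 and 0.4ox, which are held in the first tables alone, and the tables do not give what the fractions of reads are. The ratios of the WRKY 23 loci are therefore uncertain as values of single loci. For shares over many genes the whole-read count was not rescaled. On that scale 16.3% of the 15171 genes that reached 50 counts in 0.8ox held under 10% of their count as whole reads. So did 11 of the 63 listed TFs, for which no minimum count was set. The further locus, at 10.6% on that scale, was not among them. With the counts of MDP0000652760 and MDP0000134105 added, the log2 ratios were 1.83 in 0.4ox (adjusted p = 1.81e-12) and -0.13 in 0.8ox (adjusted p = 0.791) against T0.

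**Figure D3:**
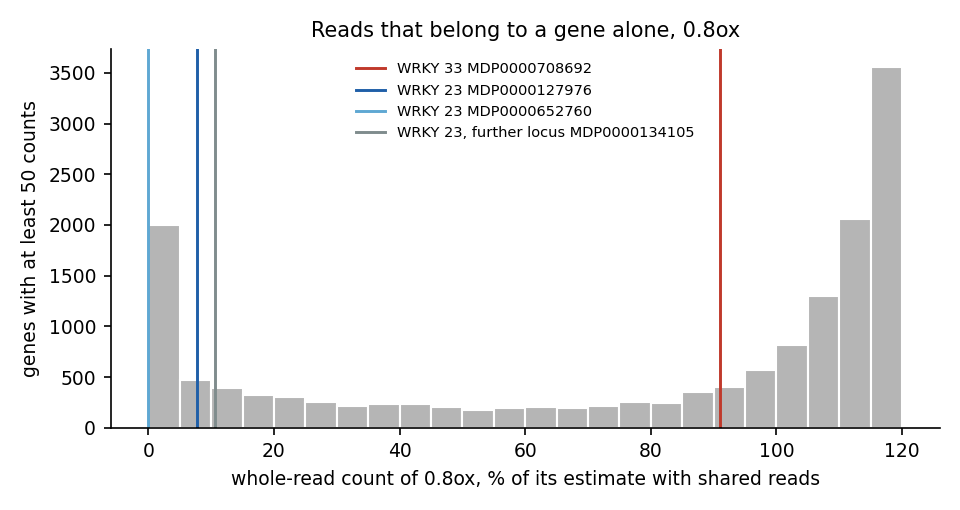
Count of 0.8ox in the whole-read table as a percentage of the count in the tables with fractions of reads, as a histogram over genes that reached 50 counts, with the 4 WRKY loci as vertical lines. WRKY 33 lies at 91.0%, MDP0000134105 at 10.6%, MDP0000127976 at 7.74% and MDP0000652760 at 0, and values above 100% occur because the tables were scaled differently.

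The shifted group had no part in the selection and was compared with 0.8ox in the whole-read table. By the study's methods the shift came after the sampling at 24 days, so the shifted fruit had been stored longer than the 0.8ox fruit, and in the other chamber. Oxygen history, storage time and chamber cannot be told apart in this comparison. WRKY 33 was much higher after the shift, at 24.5 ± 3.2 CPM against 1.92 ± 0.62 in 0.8ox (SD from the deposited variance). The scaled reads of the 3 libraries of 0.8ox were 11.1, 6.88 and 12.9, with a mean count of 10.3, and the mean count of the shifted libraries was 119.0. The reads of the shifted group could not be assigned to single libraries, since 480 combinations with 307 to 577 reads in all gave the same mean. The level was 12.8-fold higher, with a log2 ratio of 3.67 (SE 0.50, 95% interval 2.69 to 4.66, adjusted p = 8.31e-11).

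Of the 20669 genes tested after the shift, 1.54% were called higher and 0.416% lower, and 139 genes had a log2 ratio at or above that of WRKY 33. The median over all genes was 0.15. The 0.8ox libraries that enter this ratio are those on which the gene was selected as low. For side by side reading, the 0.4ox level of WRKY 33 was 9.64 CPM in the tables with fractions of reads, and the shifted level of 24.5 comes from the other table, so no test was made between them. The CPM scales of these tables also differ. For the same 0.8ox libraries the RT-qPCR reference gene had 121.9 CPM with fractions of reads and 165.7 in the whole-read table, and WRKY 33 had 1.75 and 1.92. The 2 levels therefore give no fold difference.

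MDP0000127976 also had more whole reads after the shift. It had 14, 12 and 7 reads in the 3 shifted libraries against 5, 1 and 1 in 0.8ox, again from the deepest to the shallowest library. Scaled for depth, the shifted libraries stood at 8.62, 9.36 and 8.47 and those of 0.8ox at 3.95, 1.15 and 1.85. The groups did not overlap. The mean was 3.81-fold higher, and an exact two-sided permutation test of 3 against 3 libraries gave p = 0.1, the smallest value it allows. With each library left out in turn the mean was 3.04-fold to 5.89-fold higher, the highest without the deepest 0.8ox library. The 0.8ox libraries are those on which this gene and the further locus were selected as low. With fewer than 10 counts in each group the gene was left out of the fit across genes, and without that minimum its log2 ratio was 2.07 (SE 1.31, adjusted p = 0.757).

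The further locus MDP0000134105 had 6, 10 and 12 reads after the shift against 1, 3 and 3 in 0.8ox. Its scaled values of 3.69, 7.80 and 14.5 overlapped with those of 0.8ox, at 0.789, 3.44 and 5.54, and the exact permutation test gave p = 0.2. Its 2.66-fold difference became 4.10-fold without the shallowest 0.8ox library and 1.76-fold without the shallowest shifted library. MDP0000652760, with 0 reads in both groups, gave no comparison.

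**Figure D4:**
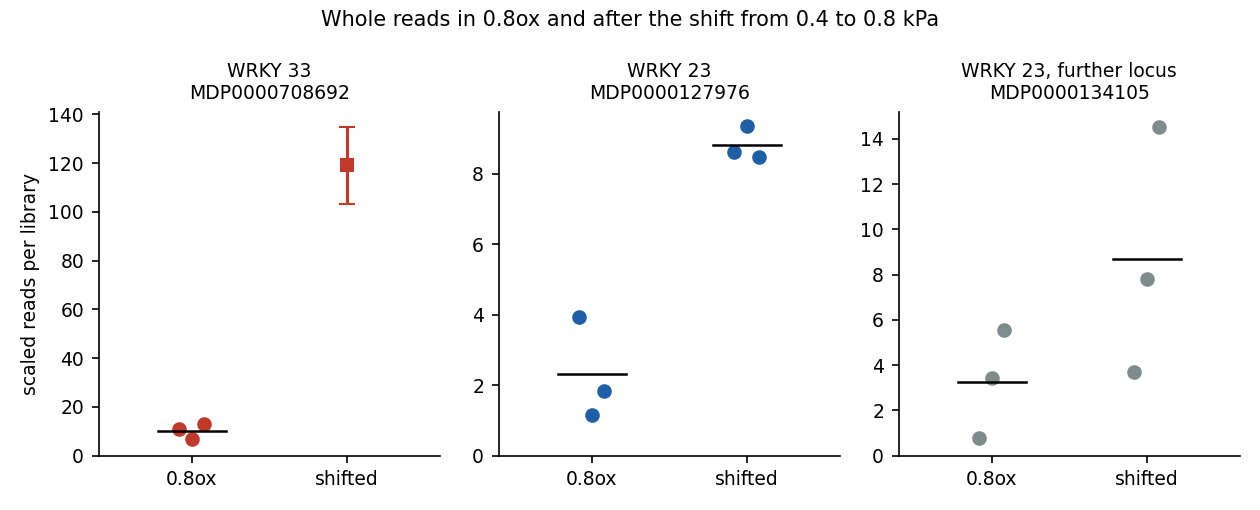
Scaled whole reads per library (points) and their mean (line) in 0.8ox and in the shifted group for WRKY 33, MDP0000127976 and MDP0000134105. For WRKY 33 after the shift the mean count of 119.0 is shown as a square with the SD from the deposited variance, and each panel has its own vertical scale.

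Among the listed TFs, 52 of 63 could be tested after the shift, of which 9 were called higher and 2 lower. Over all genes tested 1.54% were called higher and 0.416% lower. WRKY 33 had the highest log2 ratio of the 52. All 9 belonged to the 38 tested TFs that were higher in 0.4ox than in 0.8ox, a group chosen on the same 0.8ox libraries. The list's median log2 ratio was 0.64, beside 0.15 over all genes. Since 45 of the 63 were selected as lower in 0.8ox, this median is not independent of the selection. The group VII ERFs had log2 ratios of -0.72 to 0.09 after the shift in the 5 genes tested, with adjusted p of 0.0257 to 0.988.

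**Figure D5:**
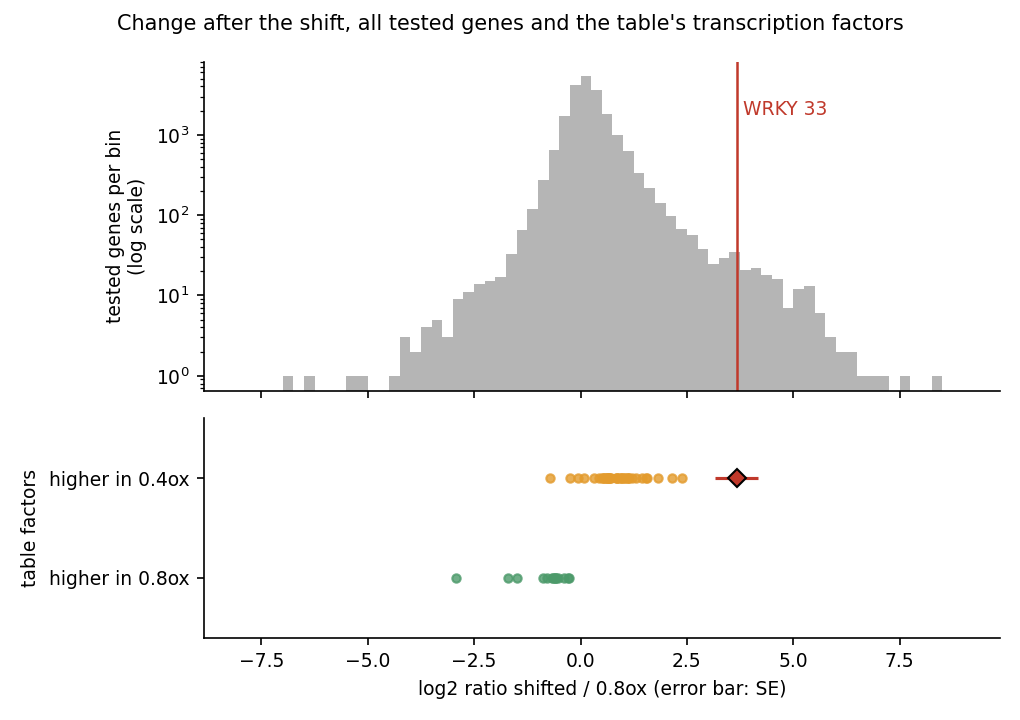
Number of tested genes by log2 ratio of the shifted group to 0.8ox (upper panel, log scale), and the listed TFs on the same axis (lower panel) as points, split by the atmosphere in which they were higher. WRKY 33, the diamond with its SE and the vertical line, lies at 3.67, beyond all other listed TFs.

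The pattern of WRKY 33 over the 3 tested ratios (0.4ox to T0, 0.8ox to T0, shifted to 0.8ox) was closest to that of MDP0000560198, at a Euclidean distance of 0.48 on the log2 scale, and next to MDP0000627178, at 0.57. MDP0000560198 had log2 ratios of 1.48, -1.35 and 3.76, and MDP0000627178 had 1.13, -1.22 and 3.59. The sources used here give neither gene a name. In all 5 of 12949 genes lay within a distance of 1. Among the listed genes the nearest were a CCCH-type zinc finger gene (MDP0000220601) at 2.49, with 1.53, 0.37 and 1.53, and a homeobox gene (MDP0000135540) at 2.61, with 0.82, -0.48 and 1.21. The WRKY 23 members were not tested after the shift and could not be placed.

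Other WRKY genes were mostly too low to follow. They were taken from the part of the study's fold-change table at hand, which is ordered by the ratio of the 2 atmospheres and favours genes higher in 0.8ox. Of 11 such loci, 9 stayed under 10 counts in every condition, and the further WRKY 23 locus is 1 of the remaining 2. The other, a WRKY 48 gene (MDP0000256514), had 3.87 ± 0.65 CPM in T0, 1.94 ± 0.60 in 0.4ox and 4.82 ± 0.86 in 0.8ox. Its log2 ratio of 0.4ox to T0 was -0.99 (SE 0.51, adjusted p = 0.117). After the shift it stood at -0.23 (SE 0.40, adjusted p = 0.872). A WRKY 75 gene (MDP0000154734), picked out after its values were seen, had 0 reads in the 3 libraries of 0.8ox and 14, 3 and 7 in the shifted libraries, a mean count of 6.47 that was under the minimum for a test.

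Of 3 VQ motif genes, whose proteins can act as partners of WRKY factors, 1 had enough counts. MDP0000346969 had 24.0 ± 2.3 CPM in T0, 18.5 ± 2.4 in 0.4ox and 5.80 ± 0.95 in 0.8ox. Its log2 ratio to T0 was -0.37 (SE 0.23, adjusted p = 0.216) in 0.4ox and -2.05 (SE 0.27, adjusted p = 1.46e-12) in 0.8ox. Like the WRKY members it was lower in 0.8ox than in 0.4ox, with a log2 ratio of -1.675 (SE 0.30), the contrast for which the study named it. Unlike them it was not called higher than T0 in 0.4ox, and it was called lower than T0 in 0.8ox. After the shift it stood at 0.89 (SE 0.31, adjusted p = 0.0694). Of 5 genes named as MAP kinases or MAP kinase kinase kinases, 2 could be tested against T0 in 0.4ox and 4 in 0.8ox. The log2 ratios in 0.4ox were -1.74 and -1.40 (adjusted p = 0.265 and 0.298). Those 0.4ox levels rest on only 1.72 and 2.47 estimated counts. In 0.8ox the log2 ratios were 0.01 to 1.41 (adjusted p of 0.0585 to 0.991). The genes are MAP kinase 4, MAP kinase kinase kinase 20 and loci of MAP kinase kinase kinase 19. Whether they act upstream of the WRKY members was not tested.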

How the data were processed

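Reads of apple cortex RNA had been trimmed (ERNE) and placed on the apple genome, version 1.0, by TopHat2 with a Bowtie2 index, leaving out reads of multiple locations. Cuffdiff then gave the deposited estimated counts, for which the authors combined 3 libraries into 1 value and 1 variance per gene and condition. No values of single libraries were used beyond the whole reads described below, so p-values rest on the modelled spread, which may be technical. The deposited variance was used without division by the 3 libraries. At low counts, such as those of WRKY 33 and MDP0000652760 in the first tables of 0.8ox, it equalled the count. Counting error alone would give that for a single count of this size, with no spread between fruit. The estimated count is a mean over 3 libraries, for which counting error alone would be smaller.

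Log2 ratios of counts scaled to equal totals were divided by the SE from these variances and compared with the normal distribution, two-sided, with Benjamini-Hochberg adjustment over all genes that reached 10 counts in 1 of the conditions and were above 0 in the other. Genes were called at an adjusted p under 0.001. The exact test of edgeR 4.0.16 was an alternative. The table with the shifted group was already scaled jointly by the authors.

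Low counts are sums of 3 step sizes, 1 per library. Where only whole reads were held, 99.8% of the 0.8ox counts from 1 to 12 were solved by a single combination of reads (tolerance 5e-07 counts per read), against 26.0% of the 0.8ox counts in the other tables. The per-library test was added after seeing the data. The WRKY members and all lists were chosen with earlier results of these data known. Named genes are the members, the further WRKY 23 locus, the lists, and the genes nearest to each member by Euclidean distance among those with at least 50 counts and at least 50% whole reads, plus the 2 nearest of the lists. Counting intervals and floors cover counting error only.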

Additional observations from a re-analysis of the deposited data

How the results depend on the processing

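The members' log2 ratios against T0 and after the shift gave 62 values under the alternatives, except that a minimum of 50 counts left MDP0000652760 without a value, and WRKY 33 without one for 0.8ox against T0. In 37 of them the ratio itself could move, and 0 of these changed direction. Of the 62 values 54 kept their side of the threshold, and the other 8 came from no scaling or the reference gene and are given with the results. The count of genes called against T0 in 0.4ox was 5052, and in 0.8ox 4975. It moved to 11388 and 8742 without scaling and to 16929 and 17970 with the reference gene. With an adjusted p under 0.05 it was 10107 and 9739, and with the variance divided by 3 it was 12127 and 11749. After the shift 405 genes were called, 1148 at an adjusted p under 0.05 and 2501 with the divided variance. The share of calls that were higher was 45.6% in 0.4ox and 40.2% in 0.8ox against T0. Without scaling it was 7.03% and 9.04%, and with the reference gene 3.18% and 2.18%. After the shift it was 78.8%, and 64.5% to 69.5% under the 3 other scalings. Between the atmospheres 38.8% of calls were higher in 0.8ox, and 68.0% without scaling. Against T0 and between the atmospheres, values without scaling also carry the difference in sequencing depth between groups. The members' ratios between the atmospheres moved by less than their SE under every scaling. No paired analysis was possible because the tables hold 1 value per condition and recovered libraries carry no replicate number. In the fit across genes no library could be left out. For the whole reads after the shift each library was left out in turn, an alternative chosen after seeing the data, and the log2 ratio was 1.61 to 2.56 for MDP0000127976, whose groups never overlapped, and 0.82 to 2.04 for MDP0000134105. Depth limits the low counts: WRKY 33 had 11.3 estimated counts in 0.8ox and MDP0000652760 had 8.13.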
